A study of Mus musculus with 6 samples.

Results

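Rods with a low share of Malat1 RNA made up 14248 of the 46375 cells deposited for 6 mouse retinas (30.7%). A cell was taken as a member if the authors had typed it as a photoreceptor, if it held at least 500 unique molecular identifiers (UMIs, 1 for each captured RNA molecule), if no more than 1 of those UMIs came from the 6 cone genes Opn1sw, Opn1mw, Arr3, Gnat2, Pde6h and Pde6c in sum, and if Malat1, a long noncoding RNA held in the nucleus, gave under 25% of its UMIs. Members were 33.6% of the typed photoreceptors and 97.1% of the 14678 rods that met the UMI and cone limits, and the other 430 rods had Malat1 shares of 25% or more. The rule read Malat1 and the cone genes, and the cell types were themselves clustered from these counts. Levels in members beside other rods or other cell types are therefore given below as a description, with no test.

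The retinas came from male C57BL/6J mice aged 12 months. There were 3 retinas of each genotype. The wt/wt mice carried normal Dram2 and the ko/ko mice a constitutive CRISPR/Cas9 deletion of Dram2 exon 4 in every cell, so the knockout was not restricted to rods. Dram2 encodes a lysosomal membrane protein named for its link to autophagy, and the comparison asks which genes change in the retina when it is lost. Replicate 3 of each genotype belonged to batch 1 and replicates 1 and 2 to batch 2, and no treatment was given. The labels do not say whether the retinas of a group came from separate animals, so p-values measure the spread between these samples, and the deposited design text speaks of choroid where the labels give retina.

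The members held 10707523 UMIs, 1144425 to 3066324 per retina, with a median of 689 UMIs per cell. Their numbers were 1790, 2144 and 2468 in wt/wt replicates 1 to 3 and 1660, 2417 and 3769 in ko/ko replicates 1 to 3, and values listed below keep this order. No 2 retinas agreed within sampling noise, with a lowest chi-square per degree of freedom of 1.44 between wt/wt replicates 1 and 2. Replicate 1 of ko/ko stood apart from the other batch 2 retinas, with 8.47 to 9.60 against them where those 3 had 1.44 to 2.45 among themselves. The deposited cell names carry no droplet barcodes, so barcodes shared between libraries could not be counted, and doublets were not removed. Levels are given as CPM, the UMIs of a gene per 1000000 UMIs other than those of Malat1. The kit counts 1 UMI per molecule at the 3′ end, so levels of different genes do not scale with transcript length.

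Rods are the photoreceptors of dim light. Light absorbed by the visual pigment switches on the G protein transducin, transducin activates the phosphodiesterase PDE6, and the fall in cyclic GMP closes the channels that carry the dark current. Rods pack these proteins into a stack of discs behind a connecting cilium, the transcription factors CRX, NRL and NR2E3 set their gene expression, and their compact nucleus lies far from both the outer segment and the ribbon synapse.

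Promoters of rod genes were read from RefSeq (GRCm38.p6) to show what the members' leading genes share in sequence, since CRX and NRL are known to switch on rod genes from sites near the start of transcription. The letters TAATCC (a CRX-type motif) and TGCTGA (core letters of an NRL-type motif) were searched on both strands from 250 bases before to 50 after the start of transcription, and no printed match of one overlapped the other. Below, the 250 bases before the start are shown 5′ to 3′ for Sag, Gngt1 and Guca1a, abundant rod genes chosen because they hold a match, and for Nrl and Nr2e3, the rod regulators, with none in these bases. Capitals mark the matches, and GGATTA is TAATCC on the other strand. The windows are chr1:87803430-87803679 on the plus strand for Sag, chr6:3993758-3994007 on the plus strand for Gngt1, chr17:47400607-47400856 on the minus strand for Guca1a, chr14:55524253-55524502 on the minus strand for Nrl and chr9:59950080-59950329 on the minus strand for Nr2e3.
Sag: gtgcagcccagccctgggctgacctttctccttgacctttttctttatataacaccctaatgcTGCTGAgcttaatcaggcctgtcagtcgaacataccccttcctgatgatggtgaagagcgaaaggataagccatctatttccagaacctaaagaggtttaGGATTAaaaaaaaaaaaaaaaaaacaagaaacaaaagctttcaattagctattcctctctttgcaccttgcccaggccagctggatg
Gngt1: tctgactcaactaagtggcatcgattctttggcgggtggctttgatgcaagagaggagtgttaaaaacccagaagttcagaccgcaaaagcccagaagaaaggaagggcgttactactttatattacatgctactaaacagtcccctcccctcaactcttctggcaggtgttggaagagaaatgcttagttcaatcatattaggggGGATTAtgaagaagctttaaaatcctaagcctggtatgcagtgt
Guca1a: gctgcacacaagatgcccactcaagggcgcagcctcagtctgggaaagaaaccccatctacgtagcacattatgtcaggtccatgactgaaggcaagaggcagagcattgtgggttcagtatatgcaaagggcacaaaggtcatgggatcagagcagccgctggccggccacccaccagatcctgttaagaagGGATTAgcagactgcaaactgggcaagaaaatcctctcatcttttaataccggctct
Nrl: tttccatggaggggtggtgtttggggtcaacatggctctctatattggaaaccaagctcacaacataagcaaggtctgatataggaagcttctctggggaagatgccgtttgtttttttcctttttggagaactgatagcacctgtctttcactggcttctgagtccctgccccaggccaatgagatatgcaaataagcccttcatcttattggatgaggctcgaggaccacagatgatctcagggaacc
Nr2e3: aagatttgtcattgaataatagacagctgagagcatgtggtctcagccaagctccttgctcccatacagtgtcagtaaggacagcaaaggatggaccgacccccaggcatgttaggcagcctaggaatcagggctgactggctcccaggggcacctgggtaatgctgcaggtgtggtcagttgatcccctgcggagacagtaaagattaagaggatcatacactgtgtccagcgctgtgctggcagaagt

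The CRX-type letters stood at -87 from the start in Sag, at -44 in Gngt1 and at -57 in Guca1a, and the NRL-type letters at -187 in Sag. Across all 27025 genes with a promoter in the table, 7.16% held the CRX-type letters and 19.1% the NRL-type letters. Of the 10 rod phototransduction genes, 6 were matched to a promoter, and 3 of them held the CRX-type letters and 1 the NRL-type letters. Of the 14 genes of response shutoff and calcium feedback, 10 were matched, with 5 and 3 holding the letters. Among 20 genes of the outer segment and cilium, 16 were matched, and 1 held the CRX-type and 1 the NRL-type letters. Among the 15 rod transcription factors, 14 were matched, and 4 held the CRX-type and 4 the NRL-type letters. Among the 20 genes highest in CPM, 13 were matched, and 4 held the CRX-type and 2 the NRL-type letters. No match was found in the printed range for Gnb1, Rom1, Pdc, Prph2 and Unc119, which are also abundant. These are matches of letters in a fixed window, given as a description.

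The Malat1 share of the members had 2 peaks. Malat1 gave under 2.5% of UMIs in 2451 members (17.2%) and 2.5% to 5% in only 281, while 7603 members (53.4%) lay between 10% and 20%. The lower peak was not spread evenly over the retinas. Among wt/wt retinas members under 2.5% were 1.40%, 2.71% and 32.4% of the members, and among ko/ko retinas 11.9%, 8.07% and 31.2%, so both batch 1 retinas lay far above the batch 2 retinas. The median Malat1 share was 16.7%, 16.9% and 8.53% in wt/wt and 10.7%, 15.7% and 9.97% in ko/ko. Depth varied along the share. In the batch 2 retinas median UMIs were 537 to 549 in members under 2.5%, without the globin-rich cells described below, 712 to 859 from 5% to 10% and 563 to 583 from 20% to 25%, and in the batch 1 retinas 686.5 and 697, then 1029 and 1109, then 601.5 and 595.

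**Figure D1:**
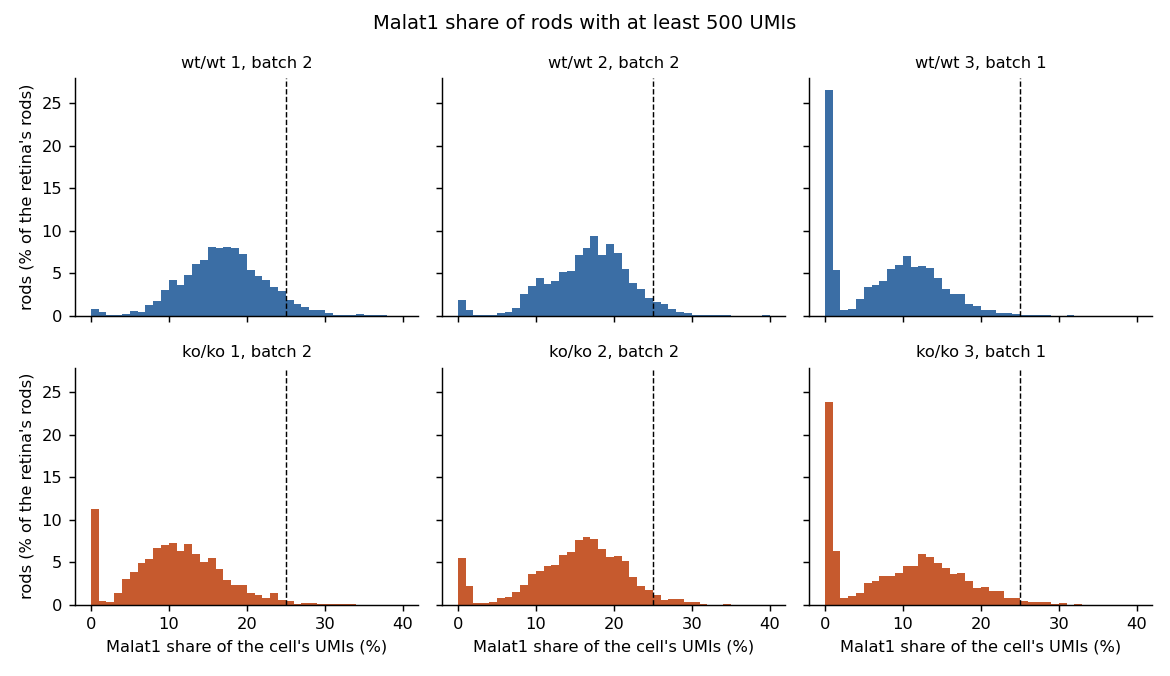
Malat1 share of the UMIs of each rod with at least 500 UMIs (x axis, %) against the percentage of the retina's rods in each 1% bin (y axis), 1 panel per retina, wt/wt in blue and ko/ko in orange. The dashed line is the 25% limit of the rule; the peak near 0 is largest in the batch 1 retinas, where 32.4% and 31.2% of members had under 2.5%.

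The limits cut through continuous distributions. There were 188 members with 24% to 25% Malat1 and 128 rods with 25% to 26%, and both had nearly the same level of Gnat1, rod transducin α (4929 and 4925 CPM). Just inside the UMI limit lay 2309 members with 500 to 549 UMIs, and just outside it 2601 cells that met the other criteria with 450 to 499. Of the members, 10319 (72.4%) had 0 UMIs on the 6 cone genes and 3929 had 1, while 867 photoreceptors within the other limits had 2 and 1090 had 3 or more. A small set of members went against the label. In 16 members globin genes gave at least 20% of UMIs, and in 15 of these they gave 86.0% to 93.0%. These cells, 6, 1 and 4 in wt/wt and 4, 0 and 1 in ko/ko, held 97.6% of the globin UMIs of all members. In the 15 the Malat1 share was at most 1.45%.

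Of the 5 rod markers given with the rule, 3 were found in nearly every member and the transcription factors Nrl and Nr2e3 in most. After each cell was thinned to 500 UMIs, at least 1 UMI of Sag (arrestin, which ends the light response) was seen in 98.4% of members, of Pde6g (the inhibitory PDE6 subunit) in 96.9%, of Gnat1 (rod transducin α) in 94.5%, of Nrl in 68.2% and of Nr2e3 in 56.3%. In glia, which do not use these genes, the thinned shares were 51.6%, 47.8%, 39.6%, 13.9% and 8.42%, and in interneurons 49.8%, 47.9%, 40.2%, 12.8% and 7.85%, so rod RNA was also counted in a large share of droplets of other types. Without thinning, the shares in members (median 689 UMIs) were 99.2%, 98.2%, 97.2%, 79.0% and 68.3%, and in glia (median 1750 UMIs) 85.3%, 81.2%, 77.1%, 35.7% and 22.1%. All 5 were detected more often in members than in glia or interneurons.

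The phototransduction cascade led the members' RNA. Its 10 genes summed to 9.76% of UMIs other than Malat1 (8.33% to 11.6% over the retinas), beside 1.17% in both glia and interneurons. Gngt1 and Gnb1, the transducin γ and β subunits, were at 15198 ± 2298 and 14622 ± 1072 CPM (SD, n = 6). The transducin α subunit Gnat1 was lower than its β and γ partners, at 7779 ± 1722 CPM, with 6247, 6053 and 10303 in wt/wt and 8173, 6739 and 9159 in ko/ko. Of the PDE6 subunits the inhibitory Pde6g (11137 ± 2885) exceeded the catalytic Pde6b (2488 ± 123) and Pde6a (1751 ± 101). The channel subunit Cnga1 (2784 ± 581) was above Cngb1 (1762 ± 113), and Slc24a1, the exchanger that removes calcium from the outer segment, was at 1691 ± 498. The batch 1 retinas were the highest 2 for Gnat1, Pde6g and Cnga1, with no overlap between batches, whereas Pde6b and Pde6a varied little. Separation was common when ko/ko replicate 1 was left out. Among 1962 genes of at least 100 CPM, both batch 1 retinas lay over wt/wt replicates 1 and 2 and ko/ko replicate 2 for 645. They lay under these 3 retinas for 796. Against all batch 2 retinas the counts can only be the same or lower, and they were not taken.

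Genes that end the response and sense calcium formed the next group, at 4.23% of UMIs. Sag was at 12854 ± 2032 CPM, with 11012, 10603 and 14546 in wt/wt and 13264, 11954 and 15743 in ko/ko. Pdc (phosducin, which binds transducin βγ) was at 7844 ± 1698, the guanylate cyclase activators Guca1a and Guca1b at 5343 ± 582 and 3610 ± 249, and Rcvrn (recoverin, a calcium sensor that acts on the receptor kinase) at 4745 ± 919. The enzymes themselves were far lower. The receptor kinase Grk1 stood at 462 ± 50.7 CPM and the guanylate cyclases Gucy2e and Gucy2f at 218 ± 43.0 and 82.1 ± 32.3. The GTPase activator Rgs9, which sets how fast transducin switches off, was at 753, 815 and 203 CPM in wt/wt and 217, 685 and 262 in ko/ko. Its low retinas were both of batch 1 and ko/ko replicate 1.

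Outer segment and cilium genes gave 2.78% of UMIs. The disc rim proteins Rom1 and Prph2 were at 8473 ± 1567 and 7137 ± 815 CPM, and Tulp1, which takes part in protein transport to the outer segment, at 3488 ± 708. The axoneme protein Rp1 was at 2941, 2961 and 1613 CPM in wt/wt and 969, 2737 and 1764 in ko/ko, the same order of retinas as for Rgs9 in that both batch 1 retinas and ko/ko replicate 1 were low. Cep290 and Mak, 2 other cilium genes, had that order as well, at 788, 836, 288, 264, 769 and 350 CPM and 568, 556, 251, 237, 451 and 245 CPM. Rpgrip1 (1043 ± 161) and its partner Rpgr (100.4 ± 16.0) varied less.

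Rod transcription factors summed to 1.15% of UMIs. Nrl, the factor that commits a photoreceptor to the rod fate, was at 2283, 2386 and 2973 CPM in wt/wt and 2744, 2480 and 3048 in ko/ko. Nr2e3, which represses cone genes in rods, was steadier at 1931, 1860 and 1998 in wt/wt and 1913, 2179 and 1994 in ko/ko. Crx, shared by rods and cones, was at 785 ± 44.6, Neurod1 at 1368 ± 221 and Samd11 at 1344 ± 378. At the synapse (1.11% of UMIs), the complexin Cplx4 was at 1361 ± 94.0, the calcium channel subunit Cacna1f at 210 ± 13.4, its regulator Cabp4 at 233 ± 41.3 and the vesicular glutamate transporter Slc17a7 at 504 ± 135. Energy genes (1.65% of UMIs) were led by Aldoa (4470 ± 508), Pkm (3416 ± 489) and Ldha (2254 ± 164), which act in glycolysis and lactate production, followed by the creatine kinase Ckb (1048 ± 249) and the hexokinase Hk2 (1020 ± 234).

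**Figure D2:**
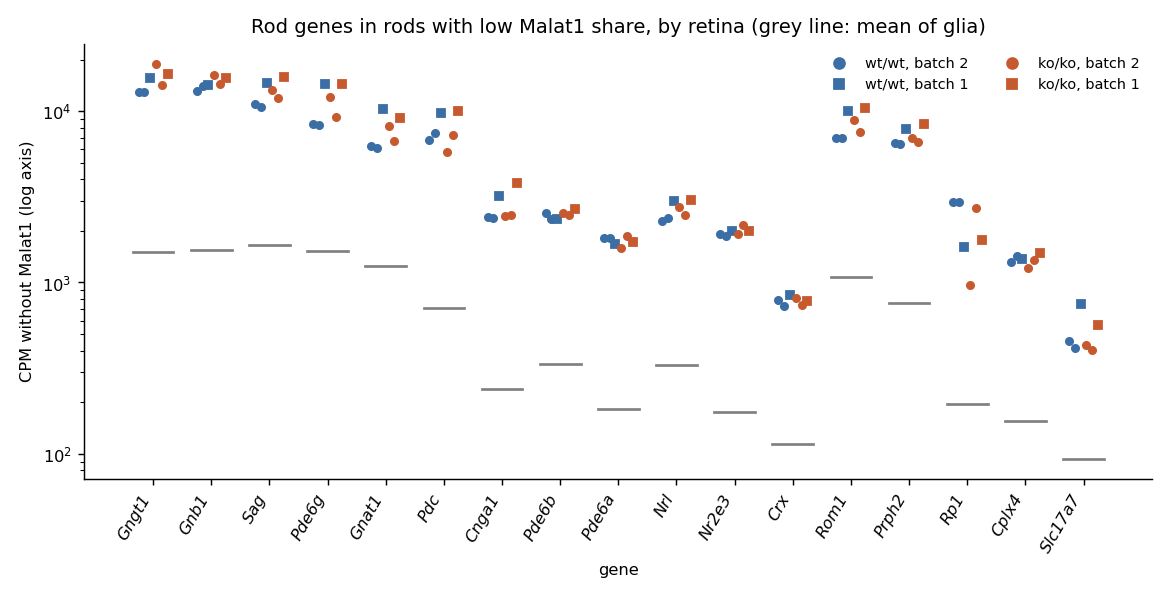
Level of 17 rod genes in members (y axis, CPM without Malat1, log axis), 1 point per retina, wt/wt in blue, ko/ko in orange, circles for batch 2 and squares for batch 1, with the mean of glia as a grey line. Each gene lay above the glia mean in all 6 retinas, and Rp1 was lowest in ko/ko replicate 1 at 969 CPM.

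UMIs fell on 26961 of the 52636 genes in members, and 1962 genes reached 100 CPM. Of these, 134 were more than 2 above the next highest deposited cell type on the log2 scale, with a pseudocount of 5 CPM. The types compared were interneurons, glia, mesenchymal cells and cells of the retinal pigment epithelium, without cones or the other rods. The largest gap, averaged over the retinas, was that of Slc22a29 (3.70), a solute carrier family member at 136 CPM. It was followed among named rod genes by Cnga1 (3.51), Pdc (3.46), Rp1 (3.44), Cabp4 (3.38), Nr2e3 (3.36), the rod-derived factor Nxnl1 (3.31) and Gnb1 (3.23). Abundant energy genes were close to or below the next type, with Pkm at 0.16 and Aldoa at -0.09 against interneurons and Ckb at -2.05, although Pkm was 1.60 above glia.

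Markers of other cells were low in the members. The 10 glia markers summed to 0.0557% of UMIs (0.0346% to 0.0830% over the retinas), beside 6.32% in glia, and the highest was Apoe at 202 CPM. The 10 bipolar markers summed to 0.0578% (0.0522% to 0.0652%), and Prkca, which rods also express, gave most of it at 355 CPM, while Trpm1 and Grm6 were at 8.23 and 7.86 CPM. The 9 amacrine markers summed to 0.00762% (0.00521% to 0.0133%), the 8 microglia markers to 0.00480% (0.00223% to 0.00609%), the 8 vascular markers to 0.00223% (0.00166% to 0.00298%) and the 7 ganglion cell markers to 0.000828% (0.000385% to 0.00190%). Of the 9 markers of the retinal pigment epithelium, Best1, Tyrp1 and Mlana were at 0 UMIs of 10707523, a count that allows up to 3, and the sum was 0.00956% (0.00459% to 0.0123%). The 5 blood markers summed to 0.294% (0.00460% to 0.587%), nearly all of it in the globin-rich cells above. Cone genes outside the rule were present at low level, with Gnb3 at 192 and Thrb at 98.3 CPM.

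RNA composition changed along the Malat1 share. Since Malat1 is one of the genes compared and the members were chosen by it, these values describe how genes vary with it, and UMIs of Malat1 were left out of each total. The 10 phototransduction genes fell from 14.6% of UMIs in members under 2.5% Malat1 to 7.22% in those at 20% to 25%, and to 6.64% in the rods beyond the limit. From members under 2.5% to those at 20% to 25%, Gnat1 went from 12817 to 6878 and from 11502 to 5804 CPM in the batch 1 retinas, and from 8785 to 10084 down to 5173 to 6562 CPM in the batch 2 retinas. With the retinas pooled, ribosomal protein genes went from 3.35% to 1.01% to 0.894%. The mitochondrial genome is given by batch, since its level differed between them. From members under 2.5% to those at 20% to 25% it went from 4.74% to 1.66% and from 4.26% to 1.46% in the batch 1 retinas, and from 0.719% to 1.06% down to 0.258% to 0.437% in the batch 2 retinas. The sum of the rod transcription factors went the other way, from 0.884% to 1.34% to 1.42%. Samd11 (441 to 2005 to 2276 CPM) and Crx (545 to 885 to 979 CPM) were among those that rose. Nrl went from 3655 to 2305 and from 3773 to 2258 CPM in the batch 1 retinas, and from 2366 to 3238 down to 2118 to 2533 CPM in the batch 2 retinas. Nr2e3 stayed between 1874 and 2092 CPM in every range with the retinas pooled. Synapse genes stayed between 0.987% and 1.14%.

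**Figure D3:**
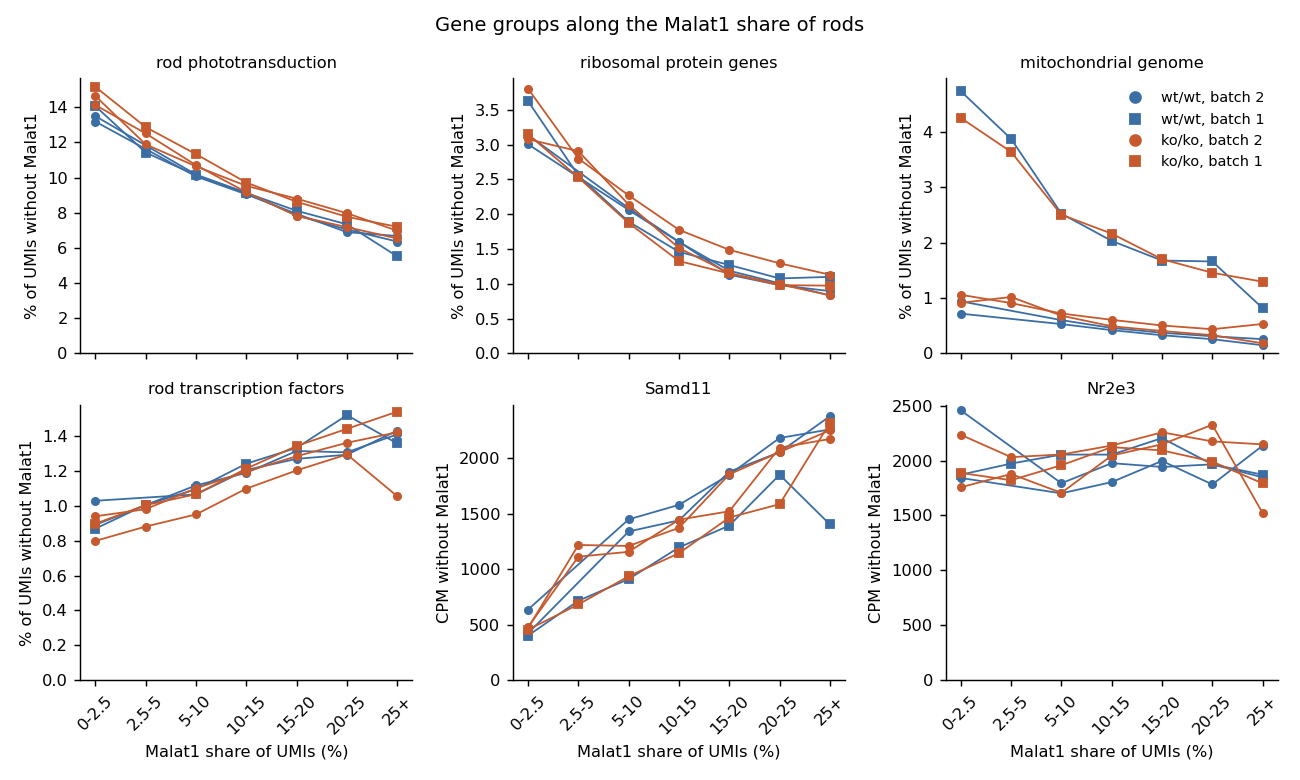
Share of UMIs other than Malat1 (top row and rod transcription factors) or CPM (Samd11, Nr2e3) on the y axis against ranges of the Malat1 share of rods (x axis, %), 1 line per retina; ranges with fewer than 10 cells in a retina are left out. In all retinas phototransduction genes fell and Samd11 rose from the lowest range to the 15% to 20% range, and the batch 1 retinas (squares) held more mitochondrial RNA in every range.

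The same contrast was looked at gene by gene between members under 5% Malat1, without the globin-rich cells, and members at 15% to 25%. These numbered 23, 59, 874, 273, 210 and 1278 cells at the low end and 1146, 1398, 321, 380, 1345 and 898 at the high end. Of 2453 genes with at least 100 CPM at either end, 545 were higher at the low end in 6 of 6 retinas and 839 were lower, with a median over all genes of -0.29 (log2). Of these, 187 and 548 reached 100 CPM at 1 end only and so had to differ, and the counts are a description. Levels at the low end are coarse in wt/wt replicates 1 and 2, with 23 and 59 cells. A gene with 0 UMIs there gets a large negative log2 difference, which can lower the mean differences and the median. Such a gene also counts as lower in that retina, which can add to the 839 and to the lower genes of each list. The 3 largest differences in the first set were those of the processed pseudogenes Tma7-ps (2.37), Gm14303 (2.31) and Rps24-ps3 (2.31). Coding genes with large differences included Ndufa1 (complex I) at 511 against 102 CPM, Rplp1 (ribosomal stalk) at 1941 against 434, Tma7 at 5539 against 1309, Cox6c (complex IV) at 2256 against 581 and Ndufa4 at 4202 against 1179. Pseudogenes made up 122 of the 545 and protein coding genes 410, beside 157 and 2182 of the 2453. Of 80 ribosomal protein genes, 58 were higher and 2 lower, with a median of 1.21, and of 12 genes of the mitochondrial genome, 10 were higher and 0 lower, with a median of 1.29.

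Of the 839 genes lower at the low end, 767 were protein coding. Of 20 outer segment and cilium genes 6 were lower and 5 higher, with a median of -0.11, and of 7 nuclear noncoding RNAs 2 were lower and 1 higher, so neither list as a whole went one way. Neat1, a noncoding RNA of nuclear paraspeckles, was at 2.73 against 103 CPM (log2 difference -3.94, range -4.79 to -2.44), and Kcnq1ot1, a nuclear antisense RNA, had a difference of -3.69. Slc22a29 was at 12.6 against 203 CPM, Rpgrip1 at 242 against 1431, Rpgr at 18.5 against 154, Prkca at 72.5 against 475 and Fam53b at 65.8 against 575. Of 14 rod transcription factors, 1 was higher (Nrl, 0.32) and 10 lower, with a median of -0.94 and Otx2 lowest at -1.89. Of 13 immediate early and heat shock genes, 0 were higher and 8 lower, with a median of -1.21, among them Btg2 (-2.02) and Jun (-1.96). Phototransduction itself was split. Of its 10 genes 7 were higher, with Gngt1 at 29212 against 9834 CPM and Pde6g at 17083 against 7997, and Pde6a and Pde6b were lower (-0.57 and -0.37). Of 21 synapse genes, 2 were higher (Snap25 and Stx3) and 9 lower, among them Cacna1f (-1.47) and Rims2 (-1.63). The median of this list was -0.28, beside -0.29 over all 2453 genes compared, of which 839 were lower, so the list as a whole was near all genes.

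The members were also set beside the 430 rods of 25% or more Malat1. Of 2695 genes with at least 100 CPM in either class, 301 were higher in members in 6 of 6 retinas and 224 lower, with a median over all genes of 0.26 (log2). A gene that reached 100 CPM in only 1 class had to differ (121 of the 301 and 76 of the 224), so these counts are a description. Mitochondrial genome genes (7 higher and 0 lower of 12) and ribosomal protein genes (34 higher and 0 lower of 80) were again higher with less Malat1, whereas immediate early and heat shock genes had 2 higher and 1 lower of 13. The high class held 123, 116 and 10 cells in wt/wt and 21, 93 and 67 in ko/ko, so its levels are coarse, and in wt/wt replicate 3 they rest on 5897 UMIs. The RNA Gm16262 (151 against 481 CPM) was lower in members in each retina, as was Neat1 at 69.9 CPM against 249 (-1.73, range -3.36 to -0.49), which reached 100 CPM in the high class alone. Higher in members were the globin genes Hba-a1, Hba-a2 and Hba-x, which come from the globin-rich cells, Gm10073 (125 against 3.28 CPM) and the tubulin cofactor Tbca (164 against 31.7), and the remaining 5 of the 10 largest were 4 processed pseudogenes and Abhd8. A gene with 0 UMIs in the high class of a retina counts as higher in members there, with a large difference. Over the retinas the log2 difference ran from 0.70 to 5.37 for Tbca and from 0.55 to 5.64 for Abhd8.

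Dram2, the deleted gene, was counted in every retina, with 37.5, 32.9 and 61.3 CPM in wt/wt and 40.0, 41.3 and 56.4 in ko/ko (log2 difference 0.10 ± 0.32 SE, adjusted p = 1 in edgeR). The kit reads the 3′ end of the transcript, which lies outside the deleted exon, so these counts do not check the genotype labels.

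The share of members was compared between genotypes, and with both batches pooled no difference exceeded the spread between retinas. In wt/wt 96.0% ± 3.17 of the rods were members (SD, n = 3), and in ko/ko 97.8% ± 1.30, a difference with p = 0.4 in a two-sided exact permutation test, which with 3 against 3 retinas cannot go below 0.1. This share is itself a Malat1 measure that the rule read, so its p is given as a description only. Members were 32.6% ± 8.11 and 34.2% ± 10.2 of typed photoreceptors (exact p = 0.8) and showed 350.4 ± 0.906 and 350.9 ± 5.91 genes per cell at 500 UMIs (exact p = 0.9). The share of typed photoreceptors depends on the limits of the rule and on depth, so its p is a description as well. Median UMIs per member were 761 and 740 in the batch 1 retinas and 633 to 651 in batch 2. The share of members under 2.5% Malat1 was 12.2% ± 17.5 and 17.1% ± 12.4, and the pooled Malat1 share of all rods 13.6% ± 4.79 and 11.6% ± 2.78. These last values were added after the data were seen and are a description with no test, since the rule used Malat1. Adjusted over the 3 comparisons tested, each exact p was 0.9. The direction depended on the batch for 4 of the 5 measures. Within batch 2, ko/ko minus wt/wt was 3.30 points for members among rods, 0.517 points for members among photoreceptors, 4.30 genes per cell, 7.95 points for members under 2.5% and -3.68 points for pooled Malat1. Within batch 1, with 1 retina per genotype, it was -1.34 points, 3.91 points, -6.96 genes, -1.24 points and 1.33 points. Among the batch 2 retinas, replicates 1 and 2 of each genotype, the genotypes overlapped only for members among photoreceptors. With so few retinas a lack of overlap adds no support for a difference. Members among rods, members under 2.5% and pooled Malat1 are also all Malat1 measures, which the rule read. Differences within a batch were not tested.

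No gene passed the test between genotypes. UMIs were summed over the members of each retina and compared with edgeR's quasi-likelihood test. Of 10711 genes tested, 0 (0%) had an adjusted p under 0.05, 75 had an unadjusted p under 0.05, and limma-voom and DESeq2 also called 0, with 89 and 27 at that unadjusted level. Gltp, a glycolipid transfer protein, had the smallest p among genes higher in ko/ko, at 8.66, 6.42 and 6.34 CPM in wt/wt and 23.4, 16.9 and 12.6 in ko/ko (log2 1.32 ± 0.35 SE, edgeR adjusted p = 1). Gltp was picked for its p among 10711 genes, so the lack of overlap between its groups adds no support. Qk, an RNA-binding regulator of splicing, had the smallest p among genes lower in ko/ko, at 51.0, 60.9 and 43.8 CPM in wt/wt and 31.2, 23.7 and 31.6 in ko/ko (-0.78 ± 0.23 SE, edgeR adjusted p = 1). The other 9 on the higher side were Nudt16, Hist2h3c2, Arl2bp (a partner of the small GTPase ARL2), Ltv1, Dapk3, Mrpl12, Cnksr1, Zfp628 and Drc3, at 0.58 to 1.10. Also on the lower side were Qser1, Mios, Arhgap21, Klhl29, Midn, Fam210a, Fam149b and Gm20425, at -1.19 to -0.62. Mios acts in the amino acid branch of mTORC1 signalling. All had an edgeR adjusted p of 1.

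No rod gene passed between genotypes. Of the 10 phototransduction genes, 0 passed in either direction and the median difference was 0.16 (log2), beside -0.01 over all genes tested. Gnat1 differed by 0.12 ± 0.32 and Pde6g by 0.25 ± 0.34 (SE). In the other lists 0 genes passed too, with medians of 0.12 for 14 shutoff and calcium genes, -0.11 for 20 outer segment and cilium genes, -0.16 for 15 rod transcription factors, -0.02 for 22 synapse genes, 0.14 for 22 energy genes, 0.02 for 12 tested mitochondrial genome genes, 0.22 for 80 ribosomal protein genes and 0.04 for 15 antioxidant genes. Of 24 tested autophagy and lysosome genes, the group to which Dram2 belongs, 0 passed and the median was 0.11, with Ctsb at 0.18 ± 0.32 and Psap at 0.51 ± 0.26. The lowest value among rod genes was that of Rdh8, a retinol dehydrogenase of the outer segment, at -0.84 ± 0.39, with 24.1, 29.7 and 13.7 CPM in wt/wt and 6.83, 18.3 and 10.1 in ko/ko. Rgs9 (-0.54 ± 0.52) and Rp1 (-0.40 ± 0.37) were also below 0, and ko/ko replicate 1 was far under the other batch 2 retinas for all 3 of these genes. Changes of moderate size were mostly missed by this test on simulated data, so these counts do not show that genes did not differ. The genotype difference was also tested between members and the 430 other rods with edgeR, and 0 of 9232 genes (0%) passed, with 288 at an unadjusted p under 0.05 and 317 in limma-voom, which also called 0. On simulated data this test found mainly very large differences in abundant genes, so the count says little about smaller ones.

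**Figure D4:**
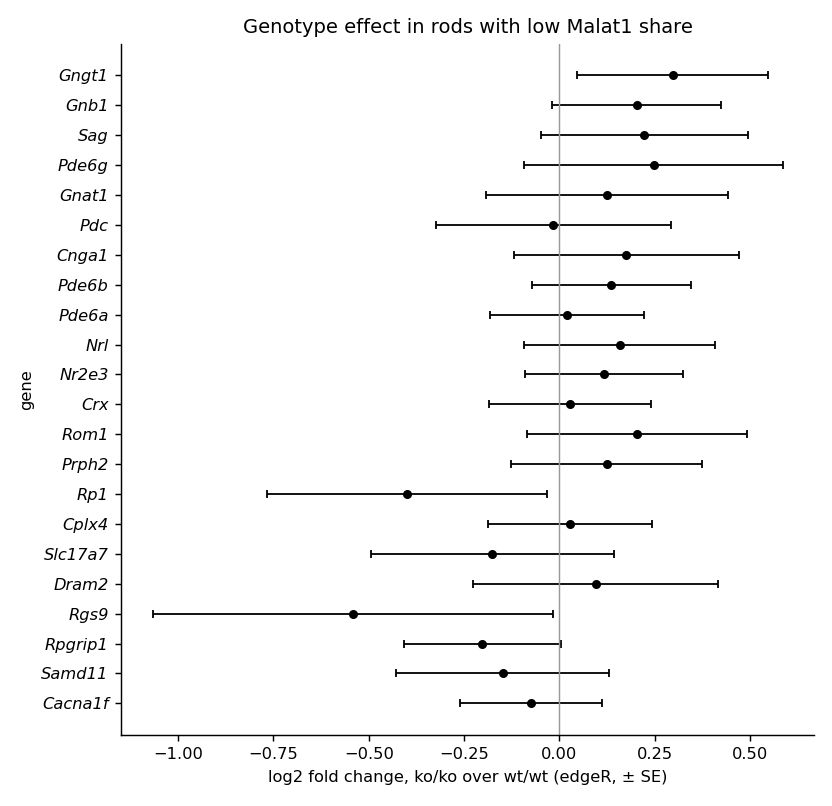
Log2 fold change between ko/ko and wt/wt in members (x axis, edgeR, 3 retinas each) for Dram2 and 21 rod genes (y axis), with bars of 1 standard error. All genes drawn except Gngt1, Rp1 and Rgs9 lay within 1 standard error of 0, and Rgs9 had the lowest at -0.54 ± 0.52.

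Globin genes were the exception under some settings. Hbb-bs was at 4214, 1485 and 2946 CPM in wt/wt and 3303, 39.9 and 269 in ko/ko, and Hbb-bt at 359, 225 and 342 and at 307, 0 and 23.3. When ko/ko replicate 1 was left out and the batch was a covariate, a setting chosen with the data in view, edgeR called 9 genes lower in ko/ko, 7 of them globin genes (Hbb-bt, log2 -4.52, adjusted p = 2.43e-08). Without the 16 globin-rich cells that fit called 1 gene, Gm19366 (-1.83, adjusted p = 0.00352), which was at 68.2 CPM in wt/wt replicate 3 and at 4.06 to 28.3 CPM elsewhere.

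Between the batches the members differed in many genes. Batch 1 held 1 wt/wt and 1 ko/ko retina, so batch was fitted in edgeR beside genotype, and 664 of 10711 genes (6.2%) passed, 292 (2.73%) higher and 372 (3.47%) lower in batch 1. Since mitochondrial share, Malat1 share and the lower peak moved with the batch together, their parts in a given gene were not tested except where stated. The mitochondrial genome changed most. Of 12 tested genes of the list, 10 were higher in batch 1, with a median of 2.67 (log2) beside -0.06 over all genes tested, and 0 were lower. mt-Nd1 (complex I) was at 558, 621 and 6769 CPM in wt/wt and 1093, 828 and 6665 in ko/ko (3.32 ± 0.20 SE, edgeR adjusted p = 0.000182). mt-Cytb (complex III) was at 1332, 1589 and 10835 and at 2607, 1937 and 10556 (2.71 ± 0.20, edgeR adjusted p = 0.000599). mt-Atp6 (ATP synthase) was at 97.2, 113 and 2001 and at 246, 96.1 and 1676 (3.94 ± 0.35, edgeR adjusted p = 0.00125). The batches did not overlap for any of the 3. These genes were picked for their p, so the lack of overlap adds no support. The batch 1 retinas also held more of this RNA at matched Malat1 share, with 4.74% and 4.26% of UMIs in members under 2.5% Malat1 beside 0.719% to 1.06% in batch 2, and 1.68% and 1.70% at 15% to 20% Malat1 beside 0.329% to 0.505%. Of the mitochondrial genes tested, mt-Nd6 (-1.08 ± 0.44) and mt-Nd4l (0.16 ± 0.33) did not pass.

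Outside the mitochondria, Hprt (purine salvage) was at 144, 148 and 416 CPM in wt/wt and 181, 175 and 451 in ko/ko (1.57 ± 0.15, edgeR adjusted p = 0.00162). Of the 372 genes lower in batch 1, 214 were protein coding and 92 processed pseudogenes, beside 261 and 9 of the 292 higher. The 10711 genes tested held 8797 protein coding genes and 870 processed pseudogenes. Gm37376, also among the lower genes with the smallest p, lies within the Malat1 gene, which the rule used, so its values are not given. Pabpc1, the poly(A)-binding protein, was at 425, 458 and 119 CPM in wt/wt and 356, 468 and 87.9 in ko/ko (-1.90 ± 0.19, edgeR adjusted p = 0.00191), and Jund, an AP-1 transcription factor, at 197, 202 and 61.8 and at 202, 208 and 70.4 (-1.47 ± 0.16, edgeR adjusted p = 0.00303). The translation factor gene Eif3j2 (-2.11), Gm26803, Gm26917, Gm45886, Gm5909, Gm44067, Gm10837 and Gm4928 fell as well, by 1.73 to 3.12 on the log2 scale. Pseudogenes and Eif3j2 share sequence with other genes, so their counts are uncertain.

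**Figure D5:**
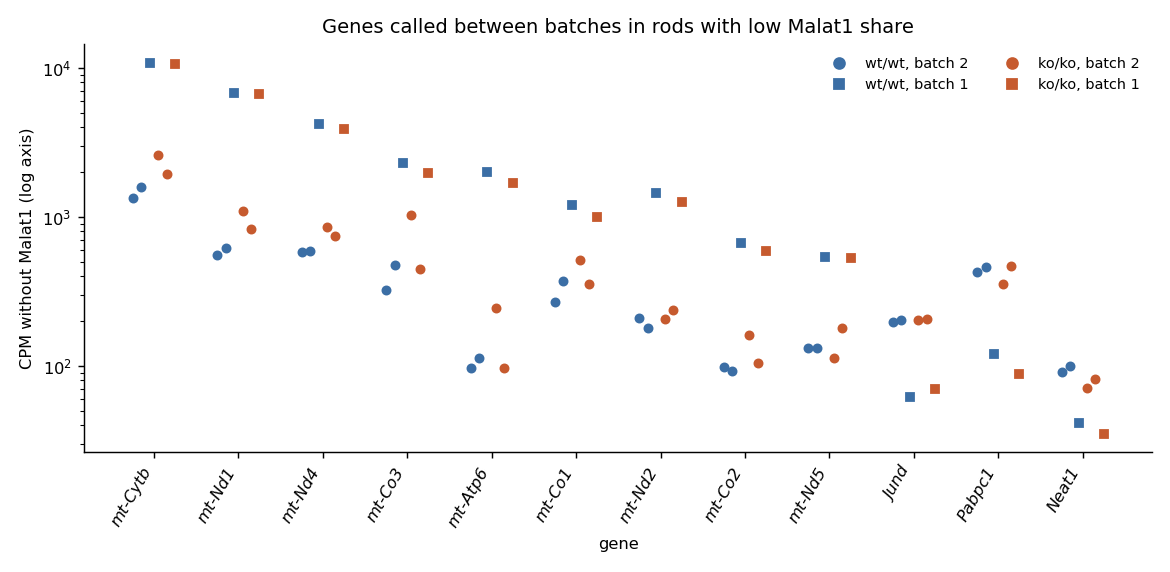
Level of 9 mitochondrial genes and 3 genes lower in batch 1 (y axis, CPM without Malat1, log axis) in members, 1 point per retina, wt/wt in blue, ko/ko in orange, circles for batch 2 and squares for batch 1. The batch 1 retinas lay above all others for each mitochondrial gene and below all others for Jund, Pabpc1 and Neat1. The genes drawn had passed between batches, so this separation adds no support.

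Rod genes moved with the batch to a lesser degree. Over all 10711 genes tested 2.73% passed as higher and 3.47% as lower in batch 1, so 1 call in a list says little about that list. Of the 10 phototransduction genes 4 were higher in batch 1, among them Gnat1 (0.67 ± 0.16), Pde6g (0.76 ± 0.16) and Cnga1 (0.67 ± 0.12), with edgeR adjusted p of 0.0421, 0.0311 and 0.0215. In the shutoff list Sag (0.52) and Pdc (0.69) passed, and in the retinoid list Rbp3 (1.02), which carries retinoids between cells, and Rdh14 (0.76). Of 20 outer segment and cilium genes 4 were higher, with Arl6, a BBSome-linked GTPase, at 308, 310 and 637 CPM in wt/wt and 386, 330 and 714 in ko/ko (1.17 ± 0.15, edgeR adjusted p = 0.00592). Of 22 synapse genes 4 were higher (Slc17a7, Snap25, Cplx3 and Egflam), and of 15 rod transcription factors 1 was lower (Samd11, -0.62 ± 0.15). Of 80 ribosomal protein genes 16 were higher and 0 lower. Among nuclear noncoding RNAs Neat1 fell by 1.01 ± 0.17, Tug1 fell by 1.07 ± 0.24 and Meg3 rose by 2.05 ± 0.28. Dram2 (0.78 ± 0.18) and the lysosomal protease Ctsb (0.78 ± 0.16) were the 2 of 24 autophagy and lysosome genes that were higher, with edgeR adjusted p of 0.0425 and 0.0291, and the mitochondrial peroxiredoxin Prdx3 (0.86 ± 0.20) was the 1 of 15 antioxidant genes. The glia markers summed to 0.0591% to 0.0830% of UMIs in batch 1 and 0.0346% to 0.0648% in batch 2, and the amacrine markers to 0.0102% to 0.0133% and 0.00521% to 0.00589%. The part of other cells' RNA in the batch differences was not tested.

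The count was also taken without the lower Malat1 peak, which left 11516 of 14248 members. Depth fell with it, so the part of the peak in the changed calls was not tested. With members of at least 5% Malat1 alone, added after the data were seen, edgeR called 606 of 10444 genes (5.8%), 196 (1.88%) higher and 410 (3.93%) lower in batch 1. Of these, 449 were among the 664 (67.6% of the 664 and 74.1% of the 606). The same 10 of 12 genes of the mitochondrial genome were higher, while phototransduction had 1 of 10 higher and ribosomal protein genes 3 higher and 1 lower of 80. Without ko/ko replicate 1 the count rose to 3904 of 11248 genes (34.7%), with 1971 (17.5%) higher and 1933 (17.2%) lower, and phototransduction had 8 higher and 1 lower of 10. Of 1962 genes of at least 100 CPM in members, that retina was over 2-fold below the mean of the other batch 2 retinas for 129, and for 127 of these both batch 1 retinas were also under all 3 of them, beside 796 of the 1962 genes for which the batch 1 retinas were so placed. It was over 2-fold above that mean for 22 genes, and for 8 of these both batch 1 retinas were over all 3, beside 645 of the 1962. Across the more abundant genes its chi-square per degree of freedom was 9.02 and 11.2 against the batch 1 retinas and 8.47 to 9.60 against the other batch 2 retinas. This value grows with UMIs, and the batch 1 retinas held more, so these are not equal measures of distance. The place of ko/ko replicate 1 relative to the batches was not tested further. Rgs9, Rims2 (112 against 373 to 417 CPM) and Syne2 (39.0 against 172 to 174 CPM) were among the 129. The count was 40, 50 and 19 without wt/wt replicates 1, 2 and 3, 288 without ko/ko replicate 2 and 67 without ko/ko replicate 3. Each of the 9 mitochondrial RNAs among the 10 genes with the smallest p on the higher side passed in all 15 alternatives run.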

How the data were processed

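The authors aligned exonic reads of 10x Genomics 3′ single-cell libraries to GRCm38 (Cell Ranger 3.1.0, per the submitters' processing notes) and deposited raw UMI counts per gene and cell, not normalized, with a second table of sample, genotype, batch and cell type from Seurat clusters. The filter on cells is not given in the sources used here. Of 52636 gene identifiers 52403 were named.

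Member cells were picked from these tables, their UMIs were summed per retina, and sums were tested with edgeR 4.0.16 (TMM, filterByExpr, glmQLFit and glmQLFTest, Benjamini-Hochberg over all genes tested) in R 4.3.3, for genotype alone, for batch beside genotype, and for genotype by Malat1 class. Shares were compared with exact permutation tests (scipy 1.17.1). CPM were computed without Malat1, and log2 ratios of CPM used a pseudocount of 5. Each edgeR test was checked on simulated data, with 12 false calls in the genotype check and 7 in the batch check. Of genes changed by 1 on the log2 scale, 10.4% and 36.1% were recovered. Of those changed by 2, 85.9% and 97.9% were recovered. Calls at the threshold can therefore include false ones. Depth was 1144425 to 3066324 UMIs per retina, and the limit that a count of 0 allows covers counting error only. Alternatives used limma-voom (limma 3.58.1, the study's method), DESeq2 1.42.0, RLE factors, all genes unfiltered, a fold threshold of 2, batch or replicate number as a term, Malat1 left out, other limits of the rule, and each retina left out. Genes named are the examples highest in CPM and those called in each list, the 10 with the smallest p per direction, the 20 highest in CPM, the 15 furthest above other types and the 10 furthest apart per direction between Malat1 classes. The low end of the Malat1 share was compared by the same rule, chosen after the data were seen. Some genes under the rule are not reported here. The members, lists and tests were chosen with earlier results of these data known. Python 3.11.15, numpy 2.4.6, pandas 2.3.3 and matplotlib 3.10.9 were used. Columns of UMAP positions were not used.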

Additional observations from a re-analysis of the deposited data

How the results depend on the processing

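Between genotypes the edgeR count stayed at 0 under 22 of 25 alternatives; it was 1 with no filter on low counts (Hbb-bt), 9 with the batch as a covariate and without ko/ko replicate 1, and 1 when the globin-rich cells were left out as well. With each retina left out in turn it was 0 throughout. Between batches the count was 1687 with no filter, and 19 to 3904 with each retina left out; with 1 retina left in batch 1, its spread was assumed to be that of the other retinas. It was 3337 with Malat1 of at least 5% and without ko/ko replicate 1. All 20 genes named between genotypes kept their side of the threshold, and of 300 values for the 20 genes named between batches 4 lost the call (Gm44067, Gm4928, Gm5909 and Hprt, 1 each).

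Differences in shares, ko/ko minus wt/wt, turned sign as follows. Members among rods were at -0.0468 points with at least 1000 UMIs and at -1.34 within batch 1, and ranged from 0.534 to 3.55 with each retina left out. Members among photoreceptors ranged from -3.90 to 6.21 with each retina left out, negative without wt/wt replicate 1 (-1.92) and without ko/ko replicate 3 (-3.90). Genes per cell ranged from -1.98 to 3.80, negative without ko/ko replicate 1 (-1.98) and without ko/ko replicate 2 (-0.165), and were at -6.96 within batch 1. Members under 2.5% Malat1 ranged from -2.17 to 15.01, negative without wt/wt replicate 1 (-0.503) and without ko/ko replicate 3 (-2.17), and were at -1.24 within batch 1. Pooled Malat1 ranged from -4.77 to -0.583 and was at 1.33 within batch 1. The cause of these turns was not tested.

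Replicate numbers did not pair the retinas, since same-numbered retinas deviated together with correlations of -0.09, 0.51 and 0.55, the first was below the limit set for pairing, and wt/wt replicate 1 deviated most with ko/ko replicate 2 (0.47). With the replicate block, edgeR called 0 genes between genotypes (205 at an unadjusted p under 0.05). The paired mean differences under the block were 1.75 points for members among rods, 1.65 points for members among photoreceptors, 0.55 genes per cell, 4.88 points for members under 2.5% and -2.01 points for pooled Malat1, with exact p of 0.5 to 1 for the first 3 and no test for the Malat1 values. With 3 retinas a group, changes of moderate size between genotypes were mostly not detectable.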
